A study of Zea mays with 14 samples.

Results

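A root hair is the tubular outgrowth of a single epidermal cell, and it lengthens by adding wall and membrane at its tip while calcium, reactive oxygen and the actin cytoskeleton steer the growth. Root hairs enlarge the surface through which a root takes up water, nitrate, potassium, iron and other ions, and in maize they can be scraped from a frozen root, which makes them one of the few plant cell types that can be collected in bulk without enzymes or a reporter gene. Messenger RNA of such scraped hairs was sequenced from wild type seedlings of B73, a widely used maize inbred line, at an age of 3 days after germination in moist paper, and set against messenger RNA of the roots that were left after scraping. The groups were B73 root hair and B73 root, with 2 libraries each, so 4 of the 14 libraries of the series, and all 39305 gene IDs were compared. A B73 aerial seedling group of 2 libraries entered the same fit, and a pair of further groups, W22 wild type root hair and B73 wild type root of a set built around the zmlrl5 mutant, served as a second look at the same contrast. Mutant libraries of that set, W22 zmlrl5 knock-down root hair and B73 zmlrl5 knock-out root, entered the fit of the second look. They were not part of its contrast. The sources used here do not say how many seedlings went into a library, and the p-values therefore reflect only how far these libraries spread, which may be technical.

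Total counts were 25845354 and 27788359 in root hair and 14775951 and 26147759 in root, and the Pearson correlation of log2 CPM (counts brought to one effective library size) taken across genes (not independent of each other) was 0.987 between the root hair libraries, 0.986 between the root libraries and 0.654 to 0.667 between tissues. The hair label was checked with rth3 (GRMZM2G377215), a COBRA-like wall protein gene whose mutant has short hairs, which had 418 and 337 CPM in root hair, against 19.9 and 20.8 CPM in root. Markers of other cells were read as summed CPM over a list. Markers of dividing cells (core histones, MCM and PCNA genes) were lower for 11 of 11, with 69.6 and 88.7 CPM in root hair, against 2191 and 1705 CPM in root. Secondary-wall markers included 12 that fell and 2 that rose among 15, with 95.4 and 100 CPM in root hair, against 764 and 756 CPM in root, and 2 of the 15 had no count in root hair. Most of the root hair sum came from 1 of the 2 that rose, LAC1 (GRMZM5G842071), at 77.5 and 84 CPM, so the sum understates the fall of the others. CesA12 (GRMZM2G142898), for example, had 0.904 and 0.687 CPM in root hair, against 170 and 179 CPM in root. The endodermis gene SCR (GRMZM2G131516) had 0.0565 and 0.115 CPM in root hair, against 10.4 and 14.6 CPM in root, and the root cap gene RCP1 (GRMZM2G097316) 24.8 and 25.1 CPM in root hair, against 83.3 and 78.9 CPM in root. Most markers of inner, dividing and root cap cells were thus lower in the scraped fraction, and most still had counts there, although RCP1 went the other way in the second set. Photosynthesis genes included 13 that rose and 1 that fell among 15, at summed CPM of 13.6 and 22.2 in root hair, 5.08 and 5.63 in root, and 3455 and 3435 in aerial seedling, and 1 of the 15 had no count in root. The part of these markers in the results below was not tested.

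Root hair and root differed in most genes. Of 25551 genes tested, 8678 were higher (34.0% of all tested) and 10007 lower (39.2%) in root hair at an adjusted p under 0.05, and 6991 (27.4%) and 9229 (36.1%) of the tested genes changed 2-fold or more. In either direction 73.1% of the genes were called. Counts of higher and lower genes in the lists below are to be read beside these 34.0% and 39.2% of all tested genes. These counts rest on TMM scaling. On library totals, an alternative chosen after seeing the data, the median over all tested genes was -1.25 (log2), against -0.14 with TMM, a shift of -1.11, and 3930 genes were higher and 14853 lower. Log2 fold changes below are relative to the TMM scale unless stated, and a TMM value between 0 and about 1.1 is therefore one whose sign depends on the scaling. In bulk samples such as these, fewer cells of a type and less RNA per cell cannot be told apart.

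The 2 tissues differed in how counts were spread over genes. A set of 364 and 327 IDs held 50% of all counts in the root hair libraries, against 887 and 1066 IDs in the root libraries, and the 100 IDs with most counts held 30.3% and 31.6% in root hair and 19.8% and 18.1% in root. IDs with 10 or more counts numbered 18367 and 18383 in root hair and 22560 and 24067 in root, although the root hair libraries held as many counts as the deeper root library or nearly so. The differences were also lopsided in size. Called genes with a log2 fold change of 5 or more numbered 484, against 3219 with -5 or less. Among IDs with 1000 or more counts in one tissue, only 1 of 5830 had 3 or fewer counts in root (GRMZM2G121928, which carries no name, with 1282 root hair counts and 2 root counts), whereas 122 of 7056 had 3 or fewer in root hair. A gene high in root hair was therefore nearly always still read in root. Of 1800 genes that were 2-fold or more higher with 100 CPM or more in root hair, the median root level was 43 CPM and 21 lay under 1 CPM. The 609 genes that were 2-fold or more lower with 100 CPM or more in root had a median root hair level of 19.6 CPM, with 76 under 1 CPM.

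**Figure D1:**
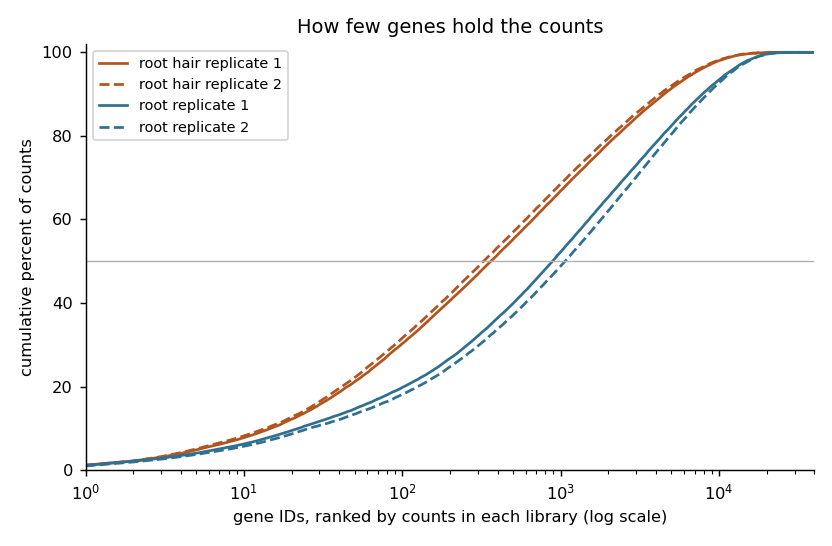
Cumulative percent of counts (vertical axis) against gene IDs ranked by counts in each library (horizontal axis, log scale), one line per library, with a grey line at 50%. Both root hair lines rise faster, and reach 50% at 364 and 327 IDs, against 887 and 1066 IDs in root.

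The second pair of groups shares no library with the first, but its hairs are from W22 and its roots from B73, so that tissue and inbred line cannot be told apart in it. Of 8429 genes higher in B73 root hair that were tested in both sets, 5705 (67.7%) were also called higher in W22 root hair, where 36.5% of all genes were, and 1217 (14.4%) were called lower. Of 9177 genes lower in B73 root hair, 7137 (77.8%) were also called lower in W22 root hair, where 44.0% of all genes were, and 855 (9.32%) were called higher. The shared calls were 61.8% of the 9225 genes called higher and 64.1% of the 11135 called lower in the second set.

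The named transcripts with the highest CPM in root hair, which is not corrected for transcript length, among those 2-fold or more higher included phenylpropanoid enzymes, wall enzymes and peroxidases. PAL1 (GRMZM2G074604), phenylalanine ammonia-lyase, the entry enzyme of the phenylpropanoid pathway, had 17533 and 18398 CPM in root hair, against 2659 and 2132 CPM in root. It took 1.2% and 1.16% of all counts of the root hair libraries and 0.361% and 0.319% of those of root. BM1 (GRMZM5G844562), the brown midrib cinnamyl alcohol dehydrogenase that makes lignin monomers, had 10792 and 12827 CPM in root hair, against 957 and 738 CPM in root. 4CL (GRMZM2G075333), the ligase that activates hydroxycinnamic acids, had 5249 and 5641 CPM in root hair, against 499 and 415 CPM in root. No root hair value of these genes overlapped a root value, which their choice among called genes makes likely, and the same held for 86.5% of all tested genes. Their log2 fold changes were 2.91 ± 0.24, 3.80 ± 0.26 and 3.57 ± 0.24 (SE; edgeR adjusted p = 2.12e-13, 8.84e-16 and 1.05e-15). Of 9 phenylpropanoid and lignin genes 5 were higher and 1 lower, with a median log2 fold change of 1.40 against -0.14 for all genes, and on library totals 4 were higher and 4 lower with a median of 0.29. The gene that fell was ccr2 (GRMZM2G131836), a cinnamoyl-CoA reductase, at 1.75 and 1.6 CPM in root hair, against 157 and 119 CPM in root. Another reductase gene, CCR (GRMZM2G131205), rose, at 763 and 864 CPM in root hair, against 350 and 267 CPM in root, and was not called on library totals. Laccases, which join lignin monomers in the wall, went the other way, with 10 lower and 2 higher of 13 and a median log2 fold change of -5.90 (-5.76 with genes without root hair counts at their bound).

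The exoglucanase gene exg1 (GRMZM2G147687) had 13097 and 16425 CPM in root hair, against 1923 and 1682 CPM in root. The class III peroxidase gene PER2 (GRMZM2G040638) had 3364 and 3351 CPM in root hair, against 139 and 117 CPM in root, and ap1 (GRMZM2G108219), also listed as Px11, 4571 and 5960 CPM in root hair, against 288 and 198 CPM in root. Both peroxidase genes rose, by 4.71 ± 0.25 and 4.44 ± 0.26 on the log2 scale, and the other 4 of the 6 listed peroxidases, which cross-link wall polymers with hydrogen peroxide, fell. Of those that fell, PER70 (GRMZM2G025441) had 1.86 and 2.52 CPM in root hair, against 398 and 270 CPM in root. pck2 (GRMZM5G870932), a phosphoenolpyruvate carboxykinase gene, had 3167 and 3223 CPM in root hair, against 129 and 113 CPM in root, a log2 fold change of 4.72 ± 0.25 (SE; edgeR adjusted p = 1.68e-18). The glutathione transferase gene gst2 (GRMZM2G132093) stood at 4546 and 5182 CPM in root hair, against 560 and 446 CPM in root.

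Among the named transcripts with the highest root CPM that were 2-fold or more lower, lox1 (GRMZM2G156861), a lipoxygenase gene, had 260 and 302 CPM in root hair, against 5176 and 4569 CPM in root. hsbp1 (GRMZM2G085924), named for heat shock factor binding, had 38.2 and 29.8 CPM in root hair, against 4797 and 3964 CPM in root. A pair of phytase genes, whose enzymes release phosphate from phytate, were lower: phytase2 (GRMZM2G043336) had 342 and 348 CPM in root hair, against 2659 and 1929 CPM in root, and phyS11 (GRMZM2G140101), also listed as phytase1, 74.9 and 81.2 CPM in root hair, against 1050 and 868 CPM in root. Their log2 fold changes were -2.73 ± 0.23 and -3.62 ± 0.24 (SE; edgeR adjusted p = 4.82e-13 and 3.16e-16). PMP3 (GRMZM2G477325), a small plasma membrane protein gene, had 7.91 and 13.2 CPM in root hair, against 906 and 770 CPM in root. The structural wall protein gene HRGP (GRMZM2G168651) stood at 13.4 and 14.4 CPM in root hair, against 1387 and 1710 CPM in root.

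**Figure D2:**
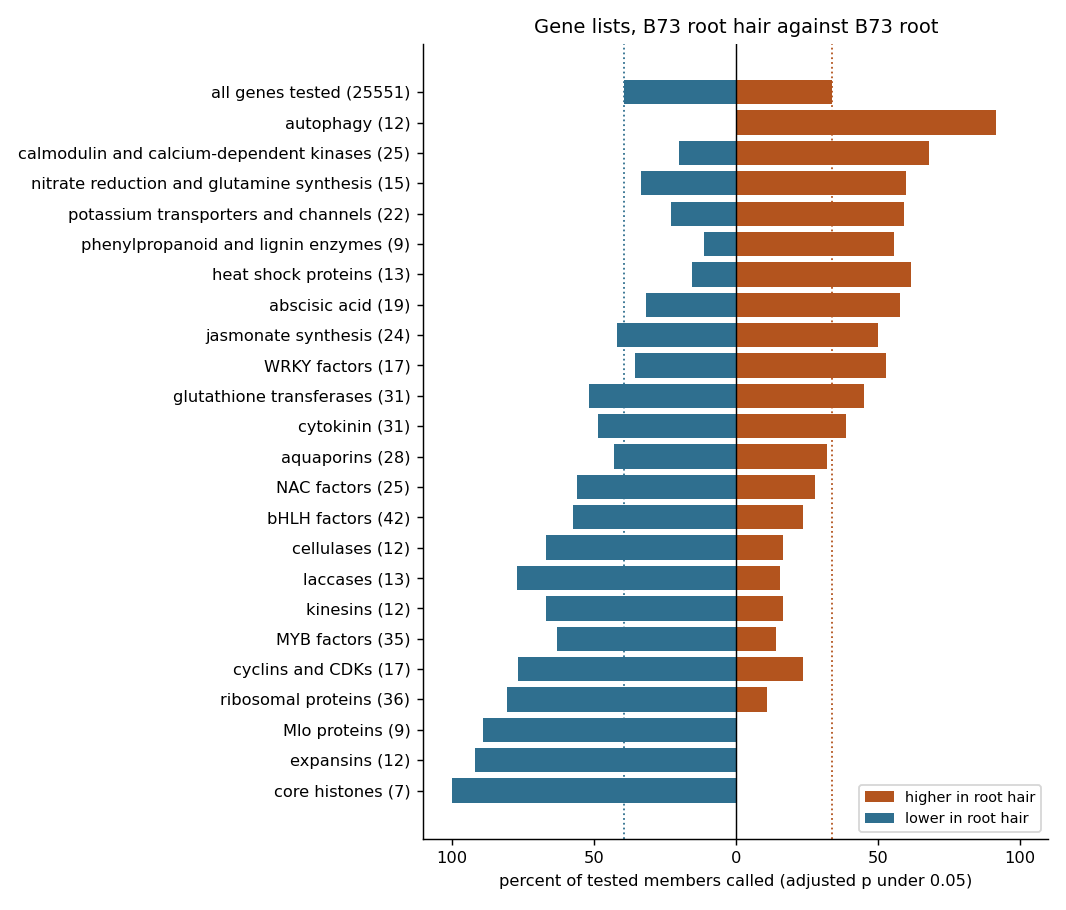
Percent of tested members called higher (to the right) and lower (to the left) in root hair for 23 gene lists, with the number of tested members in parentheses, all 25551 genes tested in the top bar and as dotted lines (34.0% higher, 39.2% lower). Autophagy and calcium lists reach furthest to the right, and core histones, expansins and Mlo genes lie only on the left.

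Most genes of wall-loosening and wall-building families fell. Of 12 cellulase genes, whose enzymes cut cellulose and related glucans, 2 were higher and 8 lower. Cel4 (GRMZM2G343144) had 4716 and 5407 CPM in root hair, against 31.9 and 25.2 CPM in root, and Cel9 (GRMZM2G153987) 22.5 and 26.1 CPM in root hair, against 0.199 and 0.153 CPM in root, log2 fold changes of 7.47 ± 0.29 and 7.11 ± 0.43. Cel3 (GRMZM2G154678) had 0.621 and 0.573 CPM in root hair, against 76.4 and 61.7 CPM in root. Cel20 (GRMZM2G453565) had 3 counts over the root hair libraries and 1534 over those of root, a ratio of root to root hair of 304 (95% counting interval 104 to 1475). COBRA-like genes, whose products organise cellulose, showed the same split, with rth3 the 1 of 6 that rose and 3 that fell. bk2 (GRMZM2G109326), the brittle stalk gene needed for secondary walls, had 0.508 and 1.26 CPM in root hair, against 240 and 206 CPM in root, a log2 fold change of -7.97 ± 0.35. Cellulose synthase genes included 9 that fell and 2 that rose among 12, and on library totals 11 and none. The secondary-wall subunit gene CesA12 (GRMZM2G142898) had 0.904 and 0.687 CPM in root hair, against 170 and 179 CPM in root, and CesA-8 (GRMZM2G177631) 910 and 831 CPM in root hair, against 575 and 572 CPM in root, a log2 fold change of 0.60 ± 0.21 that was -0.51 on library totals. Expansins were lower for 11 of 12, and the remaining one, expa1 (GRMZM2G339122), had 86.9 and 101 CPM in root hair, against 95.6 and 72.4 CPM in root (adjusted p = 0.515).

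Genes that bring nitrate in and turn it into amino acids moved in both directions. NAR2.1 (GRMZM2G179294), the partner protein that high-affinity NRT2 nitrate transporters need, had 1079 and 1386 CPM in root hair, against 57.1 and 42.1 CPM in root, a log2 fold change of 4.64 ± 0.25 (SE; edgeR adjusted p = 2.81e-18). The transporter gene nrt2.2 (GRMZM2G010251) had 0.96 and 1.89 CPM in root hair, against 0.598 and 0.742 CPM in root, which did not pass the test (adjusted p = 0.0604). NRT1.2 (GRMZM5G811593) fell, at 18.2 and 20.8 CPM in root hair, against 79.6 and 63.4 CPM in root. sum1 (GRMZM2G105604), the methyltransferase on the path to siroheme, the cofactor of nitrite and sulfite reductase, had 166 and 157 CPM in root hair, against 5.28 and 3.97 CPM in root, a log2 fold change of 5.14 ± 0.27. The nitrite reductase gene NIR (GRMZM2G079381) rose at a low level, with 4.46 and 8.54 CPM in root hair, against 2.69 and 1.87 CPM in root, and was not called on library totals. The other pair of the 4 tested genes for nitrate and nitrite reduction and siroheme fell, both at few counts. NAR (GRMZM5G878558), also listed as NR, had no count over the root hair libraries and 10 over those of root, at least 1.98-fold lower against a floor of 3 counts over the root hair libraries, and its call was lost without root replicate 1 (adjusted p = 0.16). NNR1 (GRMZM2G568636), also listed as NR, had 3 counts over the root hair libraries and 23 over those of root, a ratio of root to root hair of 4.56 (95% counting interval 1.38 to 23.7), and its call was lost without root hair replicate 1 (adjusted p = 0.134) or root replicate 2 (adjusted p = 0.0922).

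Glutamine synthetase, which fixes ammonium into glutamine, is encoded by several genes, and these did not move together. GLN6 (GRMZM2G050514) had 1956 and 2343 CPM in root hair, against 213 and 167 CPM in root, and Gln1-4 (GRMZM2G036464) 1457 and 1801 CPM in root hair, against 421 and 355 CPM in root. gln4 (GRMZM5G872068) had 2609 and 3182 CPM in root hair, against 1033 and 912 CPM in root. gln2 (GRMZM2G024104) had 1.07 and 2.06 CPM in root hair, against 139 and 116 CPM in root, with a log2 fold change of -6.34 ± 0.31 (adjusted p = 1.17e-19), while GLN6, Gln1-4 and gln4 rose by 3.50, 2.07 and 1.57. The gene table pairs the name gln1 with 2 IDs that moved in opposite directions, GRMZM2G098290 at 103 and 135 CPM in root hair, against 0.698 and 0.844 CPM in root, and GRMZM5G885867 at 0.395 and 0.458 CPM in root hair, against 3.74 and 3.22 CPM in root, so that a level for that gene is uncertain. fgs1 (GRMZM2G036609), ferredoxin-dependent glutamate synthase, which hands the nitrogen on to glutamate, had 301 and 297 CPM in root hair, against 49.8 and 57.1 CPM in root. Its log2 fold change was 2.48, but 0.01 and without a call in the second set. The asparagine synthetase gene asn2 (GRMZM2G093175) went the other way, with 0.0565 and 0.344 CPM in root hair, against 6.43 and 6.34 CPM in root, and asn3 (GRMZM2G053669) had 590 and 596 CPM in root hair, against 550 and 469 CPM in root (adjusted p = 0.359). In all, 9 of 15 genes of nitrate reduction and glutamine synthesis were higher and 5 lower, with a median log2 fold change of 1.36, and on library totals 6 were higher and 6 lower with a median of 0.24.

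**Figure D3:**
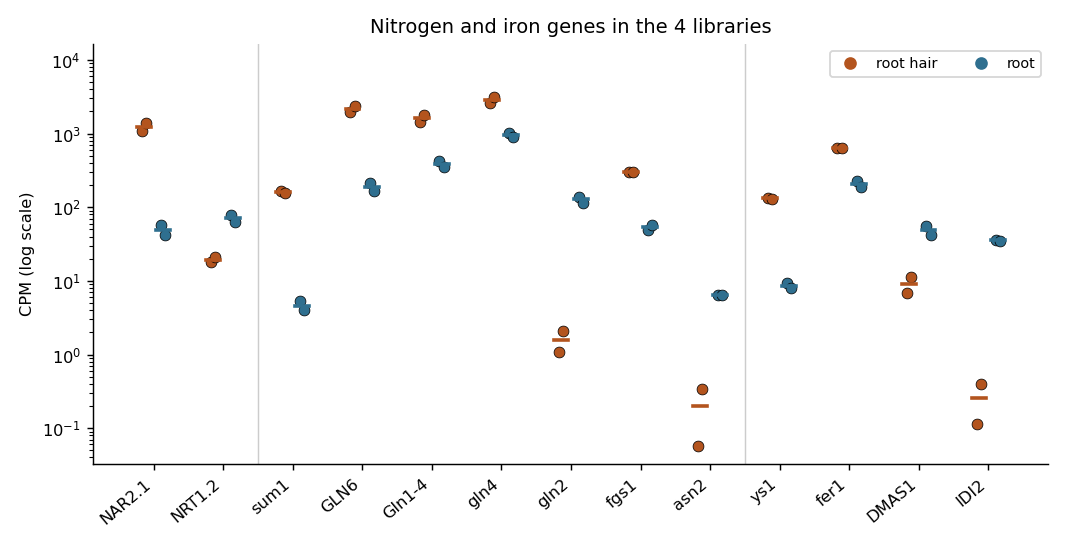
CPM on a log scale of 13 genes, root hair left and root right of each gene, with points for the 2 libraries of a tissue, bars for their mean, and vertical lines between nitrate transport, nitrogen assimilation and iron genes. NAR2.1, sum1, GLN6, Gln1-4, gln4, fgs1, ys1 and fer1 lie higher in root hair, and NRT1.2, gln2, asn2, DMAS1 and IDI2 lower.

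Grasses take up iron by releasing phytosiderophores and reabsorbing the iron complex. The carrier of that complex, ys1 (GRMZM2G156599), had 132 and 131 CPM in root hair, against 9.37 and 7.93 CPM in root, a log2 fold change of 3.93 ± 0.25 (SE; edgeR adjusted p = 2.61e-16). DMAS1 (GRMZM2G060952), deoxymugineic acid synthase, the last enzyme of phytosiderophore synthesis, had 6.89 and 11.2 CPM in root hair, against 55.2 and 42.2 CPM in root, and IDI2 (GRMZM2G139533), which takes its name from a gene induced by iron deficiency in barley, 0.113 and 0.401 CPM in root hair, against 36.2 and 35.2 CPM in root. The carrier was thus higher and a synthesis enzyme lower in the same tissue, by 3.93 and -2.42 on the log2 scale. The ferritin gene fer1 (GRMZM2G325575), an iron store, had 647 and 641 CPM in root hair, against 227 and 191 CPM in root. ZIP4 (GRMZM2G111300), a zinc and iron transporter family gene, had 0.621 and 1.32 CPM in root hair, against 9.27 and 6.52 CPM in root. Over the list, 3 of 9 iron and zinc genes were higher (33.3%) and 5 lower (55.6%), against 34.0% and 39.2% of all tested genes.

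Other transporters split by family member. HAK genes, which encode potassium transporters, included 13 that rose and 2 that fell among 18, and on library totals 7 and 5. HAK1 (GRMZM2G093826) had 905 and 926 CPM in root hair, against 81.7 and 89.5 CPM in root, and HAK8 (GRMZM2G173387) 0.339 and 0.687 CPM in root hair, against 26.9 and 23.6 CPM in root. Aquaporins of the plasma membrane (PIP), the main water channels, included 6 that fell and 2 that rose among 9, and on library totals 8 and none. PIP1-3 (GRMZM2G392975) had 3.11 and 4.18 CPM in root hair, against 395 and 354 CPM in root, PIP2-5 (GRMZM2G178693) 5.48 and 6.24 CPM in root hair, against 471 and 363 CPM in root, and PIP2-6 (GRMZM2G047368) 5.93 and 8.94 CPM in root hair, against 531 and 398 CPM in root. The log2 fold changes of these genes were -6.68, -6.15 and -5.96. PIP1-1 (GRMZM2G174807) had 3506 and 4166 CPM in root hair, against 2200 and 1847 CPM in root, a log2 fold change of 0.92 ± 0.22 that was -0.20 on library totals. The summed PIP level was 5973 and 7523 CPM in root hair, against 7514 and 6136 CPM in root, so the groups overlapped in total while single members differed. Lsi1 (GRMZM2G028325), the silicon influx channel known from rice, had 377 and 524 CPM in root hair, against 44.3 and 39.8 CPM in root, and TIP4-3 (GRMZM2G146627), a vacuolar channel gene, 842 counts over the root hair libraries and 1 over those of root, a ratio of root hair to root of 1417 (95% counting interval 254 to 56017).

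Genes whose enzymes split sucrose did not move together. sh1 (GRMZM2G089713) and sus1 (GRMZM2G152908) both encode sucrose synthase, which splits sucrose reversibly. sh1 had 2799 and 2887 CPM in root hair, against 321 and 291 CPM in root. sus1 had 5.37 and 6.19 CPM in root hair, against 1263 and 1202 CPM in root. Their log2 fold changes were 3.22 ± 0.23 and -7.74 ± 0.29 (SE; edgeR adjusted p = 5.52e-15 and 6.14e-22). In the second set they were 1.49 and -0.61. The invertase gene IVR1 (GRMZM2G394450) had 1329 and 1405 CPM in root hair, against 20.2 and 15.8 CPM in root, and the cell wall invertase gene incw1 (GRMZM2G139300) 298 and 320 CPM in root hair, against 58.1 and 52.8 CPM in root. The invertase gene ivr2 (GRMZM2G089836) had 1451 and 1462 CPM in root hair, against 1934 and 1617 CPM in root (adjusted p = 0.225). Other settings called ivr2 lower: upper-quartile scaling (-0.61), a fit of only the 4 root hair and root libraries (-0.48) and library totals (-1.40). MST1 (GRMZM2G135739), a monosaccharide carrier gene, had 849 and 925 CPM in root hair, against 124 and 131 CPM in root, while the sucrose carrier gene sut1 (GRMZM2G034302), which loads and unloads phloem, had 0.452 and 0.63 CPM in root hair, against 64 and 60.8 CPM in root. Starch synthesis genes included 8 that fell and 1 that rose among 16.

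Fermentation genes did not move together either. PDC (GRMZM2G087186), pyruvate decarboxylase, had 21.3 and 20.2 CPM in root hair, against 465 and 443 CPM in root, a log2 fold change of -4.45 ± 0.24. The alcohol dehydrogenase gene adh2 (GRMZM2G098346) had 482 and 470 CPM in root hair, against 119 and 114 CPM in root, and the lactate dehydrogenase gene LDH (GRMZM2G128929) 308 and 375 CPM in root hair, against 108 and 89.4 CPM in root. Another alcohol dehydrogenase gene, adh1 (GRMZM2G442658), fell, at 111 and 124 CPM in root hair, against 210 and 198 CPM in root. The hemoglobin genes, whose products bind oxygen and scavenge nitric oxide, rose: GLB1 (GRMZM2G067402), also listed as Hb, had 226 and 320 CPM in root hair, against 4.78 and 3.33 CPM in root, and Hb2 (GRMZM2G168898) 148 and 221 CPM in root hair, against 0.0997 and 0.537 CPM in root. In the second set Hb2 was also higher (log2 fold change 4.73), but GLB1 was not called (0.05, against 6.09 here). Glycolysis genes included 9 that rose and 2 that fell among 16 on the TMM scale, but 1 and 10 on library totals, so that no direction is given for them.

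Calcium signalling genes included 17 that rose and 5 that fell among 25, with a median log2 fold change of 1.42, and on library totals 10 and 8 with a median of 0.30. Calcium gates tip growth, and calcium-dependent kinases carry the signal to their targets. Of 9 such kinase genes 8 were higher and 1 lower, and on library totals 4 and 1. CPK21 (GRMZM2G463464) had 536 and 456 CPM in root hair, against 39.7 and 43.8 CPM in root, and CDPK2 (GRMZM2G154489) 276 and 248 CPM in root hair, against 35.1 and 35.7 CPM in root. The kinase gene that fell was CCamK (GRMZM2G062772), which is known for its part in symbiosis with fungi, at 3.5 and 3.84 CPM in root hair, against 14.8 and 12.8 CPM in root. CCamK went the other way in the second set (1.76). Of 5 calmodulin genes 1 was higher and 2 lower, and on library totals 1 and 4. The one that rose, CaM1 (GRMZM2G152891), had 2913 and 3255 CPM in root hair, against 374 and 278 CPM in root. Of 9 calcineurin B-like calcium sensor genes 7 were higher and 1 lower (5 and 2 on library totals), CBL5 (GRMZM2G041729) at 93.9 and 92.5 CPM in root hair, against 6.33 and 10.2 CPM in root, and CBL10 (GRMZM2G116584) at 0.452 and 0.516 CPM in root hair, against 23.3 and 30.8 CPM in root. Of the 7 that rose, CBL5 (-1.77) and a CBL2-1 ID (GRMZM2G069500, -1.55) were called lower in the second set. CBL8 (-0.13) was not called there. CBL6, CBL3, CBL2-2 and the other CBL2-1 ID (GRMZM2G007555) were higher there too.

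Annexins, which bind membranes in the presence of calcium, included 4 that rose and 2 that fell among 7 (2 and 3 on library totals). Ann9 (GRMZM2G132461) had 1792 and 2271 CPM in root hair, against 213 and 165 CPM in root, and Ann5 (GRMZM2G172834) 0.169 and 0.0573 CPM in root hair, against 36.7 and 28.5 CPM in root. Mlo genes, which encode membrane proteins first known from powdery mildew resistance in barley, were lower for 8 of 9, also on library totals, with a median log2 fold change of -4.01. mlo2 (GRMZM2G040441) had 0.169 and 0.458 CPM in root hair, against 15.2 and 11.9 CPM in root, and mlo8 (GRMZM5G881803) 6.72 and 5.96 CPM in root hair, against 10.7 and 11.4 CPM in root. The NADPH oxidase gene rbohB (GRMZM2G138152), of the family that makes superoxide at growing tips, had 176 and 155 CPM in root hair, against 24.7 and 31.1 CPM in root. Of the 3 genes of that family 2 were higher and 1 lower, and on library totals 1 and 1. The one that fell, rbohD (GRMZM2G441541), had 16.4 and 14.6 CPM in root hair, against 22.9 and 22.3 CPM in root, a log2 fold change of -0.54 (adjusted p = 0.0416) that lost its call with any one library left out (adjusted p = 0.088 to 0.224) and with a replicate block (adjusted p = 0.0626).

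In the cytoskeleton, the actin-depolymerizing factor genes rose, and more tubulin and kinesin genes fell than rose. The actin-depolymerizing factors adf1 (GRMZM2G117603), adf2 (GRMZM2G097122) and adf3 (GRMZM2G060702) were all higher, adf3 at 2514 and 2536 CPM in root hair, against 509 and 425 CPM in root. adf2 had 105 and 105 CPM in root hair, against 0.498 and 0.716 CPM in root. The profilin gene PRO4 (GRMZM2G108780) had 1909 and 2126 CPM in root hair, against 425 and 362 CPM in root, and a second profilin ID (GRMZM2G140455) 18 and 19.1 CPM in root hair, against 89 and 72.9 CPM in root. Of 12 tubulin genes 1 was higher and 6 lower. tub4 (GRMZM2G066191) had 1420 and 1395 CPM in root hair, against 382 and 319 CPM in root, and TUB1 (GRMZM2G164696) 0.452 and 0.63 CPM in root hair, against 148 and 129 CPM in root. Kinesins, motors of microtubules and of cell division, included 8 that fell and 2 that rose among 12, with KIN1 (GRMZM2G129569) the largest rise at 169 and 197 CPM in root hair, against 18.1 and 21.7 CPM in root.

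**Figure D4:**
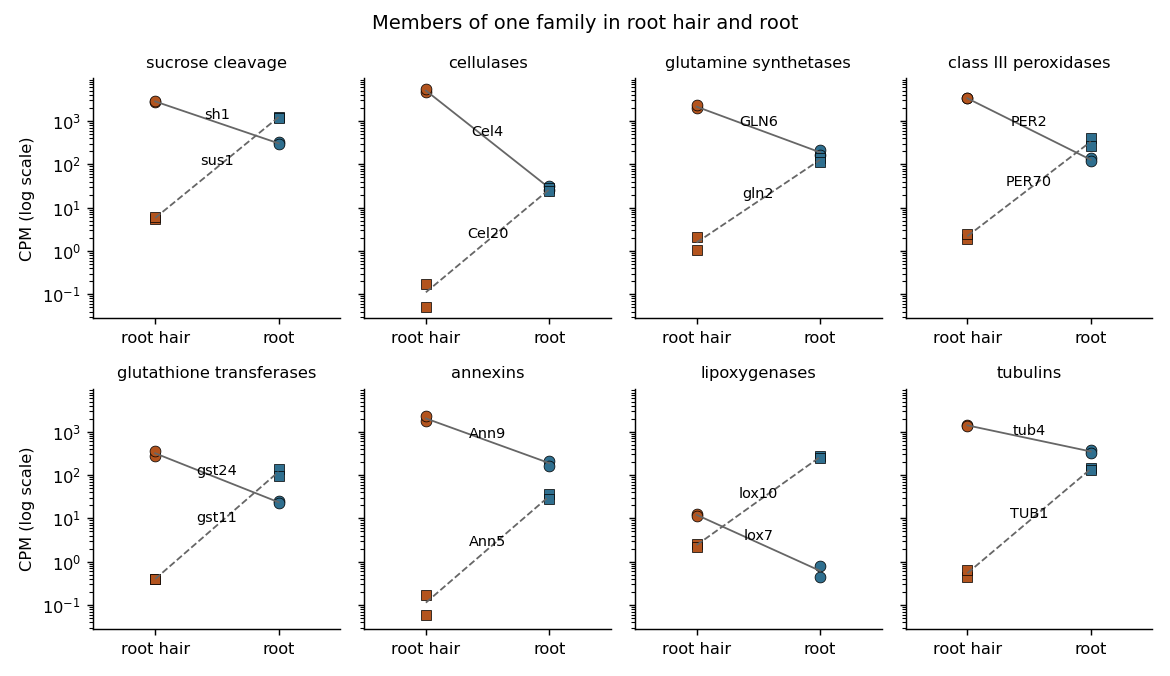
CPM on a log scale of 8 pairs of family members in root hair (left) and root (right), with points for the 2 libraries of a tissue and lines joining the means; 0 CPM is drawn at 0.05. In each pair one member (solid line) is higher and the other (dashed line) lower in root hair, as for sh1 and sus1. The pairs were chosen for their opposite changes, so this split is fixed by the choice.

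Cytokinin genes differed by their role. Response regulators, which act at the end of the phosphorelay, were higher for 7 of 8, and on library totals 7 were higher and 1 lower. RR7 (GRMZM2G096171) had 388 and 505 CPM in root hair, against 152 and 119 CPM in root, and crr2 (GRMZM2G392101) 112 and 136 CPM in root hair, against 15 and 11.2 CPM in root. Receptor (histidine kinase) genes were lower for 5 of 6, with HK1b1 (GRMZM2G155767) at 0.621 and 0.286 CPM in root hair, against 17.8 and 20.1 CPM in root. HK1b1 went the other way in the second set, with a log2 fold change of 0.40. Cytokinin oxidases, which break the hormone down, included 6 that fell and 1 that rose among 9, at a summed level of 2.54 and 4.35 CPM in root hair, against 28.4 and 21.5 CPM in root. Synthesis was represented by IPT4 (GRMZM2G104559), an isopentenyltransferase gene with 39.1 and 43.1 CPM in root hair, against 0.249 and 0.333 CPM in root, a log2 fold change of 7.07 ± 0.38 (SE; edgeR adjusted p = 2.9e-18). The other pair of tested synthesis IDs fell. Regulators and IPT4 were thus higher, and most receptors and oxidases lower, in the same libraries.

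Abscisic acid genes included 11 that rose and 6 that fell among 19, but 4 and 7 on library totals, so their balance depends on the scaling. The members named here kept their sign on library totals. The receptor gene PYL5 (GRMZM2G057959) had 37.9 and 52.6 CPM in root hair, against 7.87 and 6.5 CPM in root. CAPIP1 (GRMZM2G165567), also listed as PYL10, had 110 and 127 CPM in root hair, against 22 and 17.7 CPM in root. A second ID named PYL10 (GRMZM2G063882) had 2.6 and 2.01 CPM in root hair, against 43.7 and 37.4 CPM in root. The kinase gene SnRK2.6 (GRMZM2G130018), an activator of stress responses, had 112 and 99.9 CPM in root hair, against 22 and 20.6 CPM in root. Gibberellin synthesis and breakdown genes were lower for 5 of 5, at summed levels of 0.904 and 0.802 CPM in root hair, against 54.8 and 52.6 CPM in root. The DELLA genes D8 (GRMZM2G144744) and d9 (GRMZM2G024973), which repress gibberellin responses, were both without a call on the TMM scale, D8 at 105 and 104 CPM in root hair, against 99.5 and 94.5 CPM in root. On library totals both were lower.

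Jasmonate synthesis genes included 12 that rose and 10 that fell among 24, and on library totals 5 and 12, so their balance also depends on the scaling. Lipoxygenase genes, whose enzymes act first, included 5 that rose and 6 that fell among 11 in root hair (1 and 6 on library totals), at summed levels of 1620 and 1766 CPM in root hair, against 6905 and 6063 CPM in root. Most of the root sum came from lox1, given above, so the fall of the sum is largely that of a single gene. lox10 (GRMZM2G015419) had 2.6 and 2.23 CPM in root hair, against 281 and 243 CPM in root. lox7 (GRMZM2G070092) went the other way, with 12.8 and 11.3 CPM in root hair, against 0.797 and 0.435 CPM in root. Among the reductases of 12-oxophytodienoate and related compounds, opr2 (GRMZM2G000236) had 192 and 180 CPM in root hair, against 8.92 and 9.34 CPM in root, and opr3 (GRMZM2G156712) 126 and 118 CPM in root hair, against 13.1 and 10.6 CPM in root. opr8 (GRMZM2G082087), 1 of the 2 members best known for jasmonate itself in maize, had 0.282 and 0.974 CPM in root hair, against 13.9 and 11 CPM in root, and the other, opr7 (GRMZM2G148281), 5.93 and 6.36 CPM in root hair, against 14.6 and 13.5 CPM in root. TIFY4 (GRMZM2G445634), of the family that includes the JAZ repressors, had 558 and 712 CPM in root hair, against 81.5 and 60.3 CPM in root. TIFY4 went the other way in the second set, with a log2 fold change of -0.34. Strigolactone genes also split, with the receptor gene D14a (GRMZM2G077127) at 180 and 257 CPM in root hair, against 43 and 29.5 CPM in root, and the synthesis gene CCD8 (GRMZM2G446858) at 0.113 and 0.401 CPM in root hair, against 16.9 and 12.4 CPM in root.

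**Figure D5:**
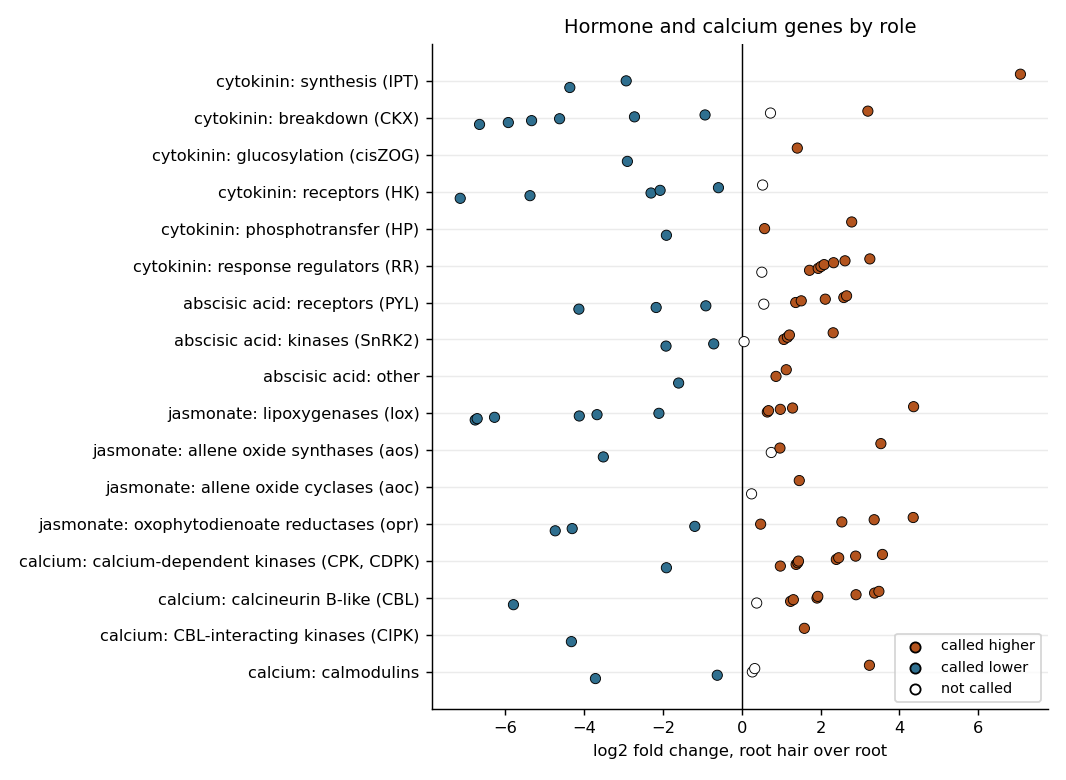
Log2 fold change of root hair over root (horizontal axis) for cytokinin, abscisic acid, jasmonate and calcium genes by role, one point per gene, filled where the gene was called. Cytokinin response regulators and calcium-dependent kinases lie mostly right of 0, and cytokinin receptors and oxidases mostly left.

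Autophagy genes rose together: 11 of 12 were higher, with a median log2 fold change of 2.15, and on library totals 8 were higher and 1 lower with a median of 1.03. Autophagy encloses cytoplasm in a membrane and delivers it to the vacuole, and ATG8 is the protein that coats that membrane. Atg8e (GRMZM2G014975) had 422 and 516 CPM in root hair, against 42.3 and 40.9 CPM in root, Atg8b (GRMZM2G419694) 404 and 426 CPM in root hair, against 82.9 and 83.6 CPM in root, and Atg8c (GRMZM2G076826) 391 and 395 CPM in root hair, against 65.1 and 66.1 CPM in root. ATG3 (GRMZM5G818887), the enzyme that attaches ATG8 to lipid, had 206 and 225 CPM in root hair, against 37.7 and 39.9 CPM in root, a log2 fold change of 2.47 ± 0.23 (SE; edgeR adjusted p = 4.01e-12). Atg10 (GRMZM2G066059) had 2.54 and 2.92 CPM in root hair, against 2.99 and 2.89 CPM in root and was not called. In the second set 10 of the 12 were higher and 2 lower.

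Heat shock protein genes included 8 that rose and 2 that fell among 13, and on library totals 7 and 5. The small heat shock protein gene hsp18f (GRMZM2G083810) had 65.7 and 87.3 CPM in root hair, against 2.04 and 1.97 CPM in root, and hsp22 (GRMZM2G007729) 327 and 377 CPM in root hair, against 48.9 and 49.5 CPM in root. hsp101 (GRMZM2G360681), a chaperone that dissolves aggregates, had 81.2 and 80.7 CPM in root hair, against 7.82 and 8.77 CPM in root. HSP90-2 (GRMZM2G012631), 1 of the 2 that fell, had 185 and 164 CPM in root hair, against 657 and 661 CPM in root. The summed level of the list was 2961 and 3180 CPM in root hair, against 2728 and 2539 CPM in root. Heat shock factor genes included 7 that rose and 2 that fell among 11, but 4 and 4 on library totals, and in the second set 6 of 9 were lower. In the same set heat shock protein genes included 7 that rose and 4 that fell among 13. Glutathione transferases, which conjugate glutathione to toxic compounds, included 14 that rose and 16 that fell among 31 in root hair, and on library totals 9 and 18. gst42 (GRMZM2G025190) had 925 and 1172 CPM in root hair, against 98.7 and 85.8 CPM in root, and gst24 (GRMZM2G032856) 278 and 359 CPM in root hair, against 24.9 and 22.3 CPM in root. gst11 (GRMZM2G119499) had 0.395 and 0.401 CPM in root hair, against 141 and 97.4 CPM in root, and gst12 (GRMZM2G096269) 0.282 and 0.516 CPM in root hair, against 114 and 88.5 CPM in root.

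Transcription factor genes moved in both directions, as did all tested genes, of which 39.2% were lower and 34.0% higher. WRKY29 (GRMZM2G040298), of a family known for defence and epidermal cell fate, had 316 and 413 CPM in root hair, against 13.7 and 12.2 CPM in root, a log2 fold change of 4.82 ± 0.26 (SE; edgeR adjusted p = 2.25e-18), in a list with 9 higher and 6 lower of 17 (4 and 8 on library totals). NAC factors included 14 that fell (56% of the list) and 7 that rose among 25. NAC1 (GRMZM2G014653) had 468 and 485 CPM in root hair, against 59 and 49.5 CPM in root, and NAC12 (GRMZM2G018436) 67.4 and 71.4 CPM in root hair, against 1.94 and 2.71 CPM in root. MYB factors included 22 that fell (62.9%) and 5 that rose among 35, and bHLH factors, the family that holds the LRL regulators of root hair growth, 24 that fell (57.1%) and 10 that rose among 42. bHLH115 (GRMZM2G068604) had 87.8 and 86.9 CPM in root hair, against 4.49 and 3.3 CPM in root, and bHLH141 (GRMZM2G080168) 0.282 and 0.115 CPM in root hair, against 58.2 and 44.7 CPM in root. Homeobox factors included 14 that rose and 13 that fell among 35, and on library totals 6 and 15. Among them ocl3 (GRMZM2G116658) and ocl1 (GRMZM2G026643), both of the class that marks the outer cell layer, moved in opposite directions: ocl3 had 130 and 117 CPM in root hair, against 8.37 and 8.83 CPM in root, and ocl1 0.282 and 0.172 CPM in root hair, against 12.7 and 12.6 CPM in root. bZIP70 (GRMZM2G060290) had 101 and 115 CPM in root hair, against 8.97 and 9.67 CPM in root.

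Counts for genes of ribosomes, division and RNA are set beside the 39.2% of all tested genes that were lower. Ribosomal protein genes included 29 that fell (80.6% of the list) and 4 that rose among 36, and the elongation factor gene EF1-A (GRMZM2G153541) had 223 and 212 CPM in root hair, against 803 and 772 CPM in root. Cyclin and CDK genes included 13 that fell (76.5%) and 4 that rose among 17, and on library totals 13 and none. Of 11 silencing genes 6 fell (54.5%) and 2 rose. argonaute1 (GRMZM2G162525), which carries small RNAs, had 3.78 and 4.47 CPM in root hair, against 104 and 99.6 CPM in root, and lbl1 (GRMZM2G020187), needed to make tasiRNAs, 0.847 and 0.172 CPM in root hair, against 23.8 and 28.9 CPM in root, log2 fold changes of -4.62 ± 0.27 and -5.67 ± 0.41. SR splicing factor genes were lower for 9 of 18 (50%), with a median log2 fold change of -0.64, and 18 were lower on library totals.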

How the data were processed

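Gene counts of 14 libraries, deposited by the authors as raw read counts per gene ID, are whole numbers with no scaling. The submitters' processing notes name TopHat2, HTSeq and DESeq without versions or roles, and no source used here gives the genome build or the strand setting, so overlapping and near-identical genes are uncertain. Rows starting with __ were left out: reads outside features were 6.34% and 6.71% of the table's total in root hair, against 4.14% and 4.42% in root.

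The 4 root hair and root libraries were fitted with the 2 aerial seedling libraries, which share the estimate of spread. Genes were kept by filterByExpr (minimum count 10, minimum total 15), scaled by TMM and tested with the quasi-likelihood test of edgeR 4.0.16 in R 4.3.3, two-sided, with Benjamini-Hochberg adjustment over all 25551 genes and a threshold of 0.05. Standard errors were taken from the log2 fold change and F, as the fold change over the root of F. CPM use TMM-scaled library sizes and are not per length, so levels of different genes are not compared by size. The second set was an 8-library fit of the zmlrl5 groups. Besides the wild type pair it held 2 libraries each of W22 zmlrl5 knock-down root hair and B73 zmlrl5 knock-out root. These mutant libraries share the estimate of spread behind its calls. For some genes with 3 or fewer counts in a tissue, a ratio with an exact 95% counting interval is given, which covers counting error only.

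Names came from a RefSeq gene table, which matched 18997 of 39305 IDs and named 2809, and 83 lists were built from those names. The members and lists were chosen with earlier results of these data known. Genes were named by a rule: among named IDs, those with the highest levels among called 2-fold changes, the largest rise, largest fall and highest levels in each list, those with counts nearly all in one tissue, and the widest splits within a family. Some genes outside this rule were added for their place in a pathway after their values were seen (among them ocl1, ocl3, opr2, opr3, opr7, opr8, sum1, fgs1, asn2, asn3, NIR, ZIP4, Lsi1, incw1, CCR, CCamK, CBL5, crr2, HK1b1, CCD8, ATG3, Atg10, hsp22, hsp18f, hsp101, GLB1, HAK8, Cel9, CDPK2, SnRK2.6, PIP2-5, PIP2-6, gst12, NAR, NNR1, rbohD, SCR, RCP1, GRMZM5G885867 and GRMZM2G121928). Alternatives were DESeq2 size factors, upper-quartile scaling, no filter, only the 4 libraries, the Wald test of DESeq2 1.42.0, a replicate block, each library left out and library totals. Promoter and protein sequences were not analysed here.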

Additional observations from a re-analysis of the deposited data

Results flagged for a closer look

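Among the genes named above, 7 moved in opposite directions in the 2 sets. Their values did not overlap between tissues in either set. The same held for 86.5% of all tested genes in the B73 tissue set, and that share was not taken for the second set. The difference between the sets was not tested, and in the second set hairs are from W22 and roots from B73, so that tissue and inbred line cannot be told apart. The root cap gene RCP1 (GRMZM2G097316) had 97.4 and 104 CPM in W22 root hair, against 0.491 and 0.4 CPM in B73 wild type root of that set, a log2 fold change of 7.82, where the B73 tissue set gave -1.70. The calcium sensor gene CBL5 (GRMZM2G041729) had 5.64 and 6.3 CPM in W22 root hair, against 21.7 and 19.2 CPM in root, -1.77 where the B73 tissue set gave 3.48. The kinase gene CCamK (GRMZM2G062772) stood at 51.5 and 55.3 CPM in W22 root hair, against 16.5 and 15.2 CPM in root, 1.76 where the B73 tissue set gave -1.91. The cytokinin receptor gene HK1b1 (GRMZM2G155767) had 18.5 and 22.1 CPM in W22 root hair, against 14 and 16.7 CPM in root, 0.40 where the B73 tissue set gave -5.37. The wall gene CesA-8 (GRMZM2G177631) had 368 and 386 CPM in W22 root hair, against 536 and 560 CPM in root, -0.54 where the B73 tissue set gave 0.60. TIFY4 (GRMZM2G445634) had 109 and 99.3 CPM in W22 root hair, against 128 and 135 CPM in root, -0.34 where the B73 tissue set gave 3.17. The NADPH oxidase gene rbohD (GRMZM2G441541) had 207 and 213 CPM in W22 root hair, against 36.7 and 42.2 CPM in root, 2.41 where the B73 tissue set gave -0.54.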

How the results depend on the processing

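On library totals, chosen after seeing the data, 3930 genes were higher and 14853 lower, and 3011 and 13346 by 2-fold or more. Among the genes named in the text, 6 changed sign on library totals: asn3 (-0.90), D8 (-1.01), PIP1-1 (-0.20), CesA-8 (-0.51), expa1 (-0.95) and nrt2.2 (-0.08), of which PIP1-1 and CesA-8 had been called higher. NIR (0.40) and CCR (0.29) kept their sign and were no longer called. ivr2 (-1.40), d9 (-1.32) and Atg10 (-1.23), without a call on the TMM scale, were called lower on library totals. The other scalings, the missing filter, the 4-library fit and the Wald test of DESeq2 gave 7152 to 8820 genes higher and 9602 to 11164 lower. ivr2 (-0.61) and d9 (-0.52) were called lower with upper-quartile scaling, and ivr2 (-0.48) also in the 4-library fit. Leaving out one library gave 7554 to 7998 higher and 9009 to 9386 lower, with the lone sample assumed to vary like the other groups. CesA-8 lost its call with upper-quartile scaling (0.27), without root hair replicate 1 (0.54) and without root replicate 2 (0.59), and mlo8 without root hair replicate 2 (-0.71) or root replicate 2 (-0.77). Genes with no call in either fit also changed sign, namely asn3 (-0.11), D8 (-0.22) and expa1 (-0.17) with upper-quartile scaling, D8 (-0.09) and expa1 (-0.03) in the 4-library fit, expa1 without root replicate 2 (-0.04; range -0.04 to 0.36 over the libraries left out) and d9 without root hair replicate 1 (0.01; range -0.44 to 0.01). nrt2.2 was called without root hair replicate 1 (1.47). The samples share only a replicate number: same-numbered root hair and root libraries deviated with a correlation of -0.182, and with the replicate block 8432 genes were higher and 9798 lower, and of the named genes rbohD lost its call (-0.55). rbohD also lost it with any one library left out (-0.63 to -0.46), NNR1 without root hair replicate 1 (-1.70) or root replicate 2 (-1.96), and NAR without root replicate 1 (-3.39). With 2 libraries a group, small changes are the least certain.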
